A study of Mus musculus with 4 samples.

Results

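The ISG15 conjugation system was followed through 5 genes, *Isg15*, *Uba7*, *Ube2l6*, *Herc6* and *Usp18*, chosen by name from the 32285 genes of the count matrix and read in every cell type and every tumour. All 5 were detected. The cells were CD45+ immune cells sorted from mouse melanomas of the YUMM1.7 line, which carries Braf V600E and was made to express ovalbumin (OVA). The tumours grew in Rag2-/- mice, which have no T or B cells of their own, and the mice were given ovalbumin-specific OT-1 T cells on day 7. Tumours were taken on day 10, which is 72 h after the transfer. NTT is the line Y1.7_NTT_3A6, naive to targeted therapy, and RTT is the line Y1.7_RTT_2B12, resistant to it. RTT_ROSA26 is the resistant line with a control guide to Rosa26, and RTT_PTGS12KO is the resistant line without *Ptgs1* and *Ptgs2*, the cyclooxygenase genes. The edits are in the cancer cells, so the sorted cells carry normal copies of these genes. The edited lines may also be single-cell clones, which the paper states for its *Ptgs2* knockout lines only. Each of the 4 groups is 1 sample, which the labels describe as 1 tumour and the study's text as several pooled tumours, and this was not settled here. With 1 sample a group the differences below have no replicate check and no p-value, and they compare these 4 samples rather than the conditions in general.

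ISG15 is a small protein made of a pair of ubiquitin-like folds. Cells attach it to other proteins through a chain of enzymes that runs parallel to that of ubiquitin. UBA7 is the activating enzyme (E1), UBE2L6 carries the activated protein (E2), and HERC6 is the main ligase (E3) in the mouse. USP18 removes ISG15 again and, apart from this enzyme activity, binds the type I interferon receptor chain IFNAR2 and damps its signal. All 5 genes are textbook interferon-stimulated genes, and free ISG15 outside the cell can act on lymphocytes through the integrin LFA-1.

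The genes lie on 4 chromosomes of the GRCm38 assembly (mm10). *Isg15* spans chr4:156199424-156200818 on the minus strand and has 2 exons. *Uba7* lies at chr9:107975505-107984060, *Ube2l6* at chr2:84798828-84810335, *Herc6* at chr6:57581000-57664632 and *Usp18* at chr6:121245906-121270917, all on the plus strand, and all 5 are protein coding. Other gene models overlap 3 of them, Gm20661 with *Uba7*, Gm45193 with *Herc6* and Gm44148, on the opposite strand, with *Usp18*, so reads of *Uba7* and *Herc6* could be split with the overlapping model. RefSeq promoter windows of 300 bases, 250 before and 50 after the start, matched 4 of the 5 genes, all but *Usp18*. The core of the interferon-stimulated response element, GAAA, any 2 bases and GAAA again, on either strand, is present in 3.44% of all 32851 windows, and the shorter core of interferon regulatory factor sites, AAANNGAAA on either strand, which every match of the longer one contains, is in 10.55%. *Isg15* held 3 overlapping matches of the longer core, from base -78 to base -57 before its start. *Uba7* held 1 match of the shorter core, on the opposite strand, from base -27 to base -19 before its RefSeq start. That match lies inside the span of *Uba7* given above, which begins farther upstream. The windows of *Ube2l6* and *Herc6* held neither set of letters. Both stretches with a match are shown 5′ to 3′ on the strand of the gene, with the matches in capitals. The first covers chr4:156200819-156200938 and the second chr9:107975529-107975558 of GRCm38.
Isg15: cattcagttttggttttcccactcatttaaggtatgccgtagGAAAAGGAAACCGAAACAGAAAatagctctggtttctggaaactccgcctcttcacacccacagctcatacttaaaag
Uba7: actcagtctagTTTCACTTTtggtttcctg

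The number of cells was 10296 for RTT_PTGS12KO, 8266 for NTT, 7970 for RTT and 6836 for RTT_ROSA26. Median depth was 7292.5 unique molecular identifiers (UMIs, each a counted RNA molecule) per cell in NTT and 12219 to 13280 in the other 3. The samples were tagged, pooled and loaded 3 times on the chip, so all samples of a load shared its free RNA, and a load is a technical repeat. Of 33368 barcodes 98 repeated a sequence of another load, and 0 repeated within a load. Levels are the UMIs of a gene per 1000000 UMIs of the cells summed (CPM), with exact Poisson 95% intervals that cover counting error only. Cell types are the authors' names, each of which was checked against defining markers. The clusters Macro, TAM_cycling, TAM_H2Ab1 and Myofibrobl had 0 of their own class's markers among their 10 leading genes, and Macro was kept out of the macrophage class. The cluster Infl_Mono has *Usp18* among its 10 leading genes, so member levels there are given as a description.

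All 5 genes were highest in NTT, next in RTT_PTGS12KO and lowest in the pair of resistant tumours with intact cyclooxygenases. *Isg15*, the modifier, went from 781 CPM in NTT and 228 in RTT_PTGS12KO to 58.1 in RTT and 41.5 in RTT_ROSA26. With the samples in that order, *Uba7*, the E1 enzyme, had 33.4, 18.1, 12.3 and 10.3 CPM. *Ube2l6*, the E2 enzyme, had 77.3, 35.8, 14.9 and 12.0 CPM. The order of the samples was therefore the same for the modifier and for the first enzymes of the chain, and the spread between tumours was narrowest for *Uba7*. *Herc6*, the ligase, had 74.3, 29.7, 13.9 and 9.97 CPM. *Usp18*, the enzyme that reverses the modification, had 76.6 CPM in NTT, 19.2 in RTT_PTGS12KO, 5.77 in RTT and 4.40 in RTT_ROSA26, and the loads of the last pair overlapped. For none of the 5 genes did the levels of NTT or of RTT_PTGS12KO overlap those of the other resistant samples in any load. *Isg15* ranged from 728 to 830 CPM over the loads in NTT and from 217 to 251 in RTT_PTGS12KO, against 55.0 to 62.2 in RTT and 38.5 to 45.8 in RTT_ROSA26.

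**Figure D1:**
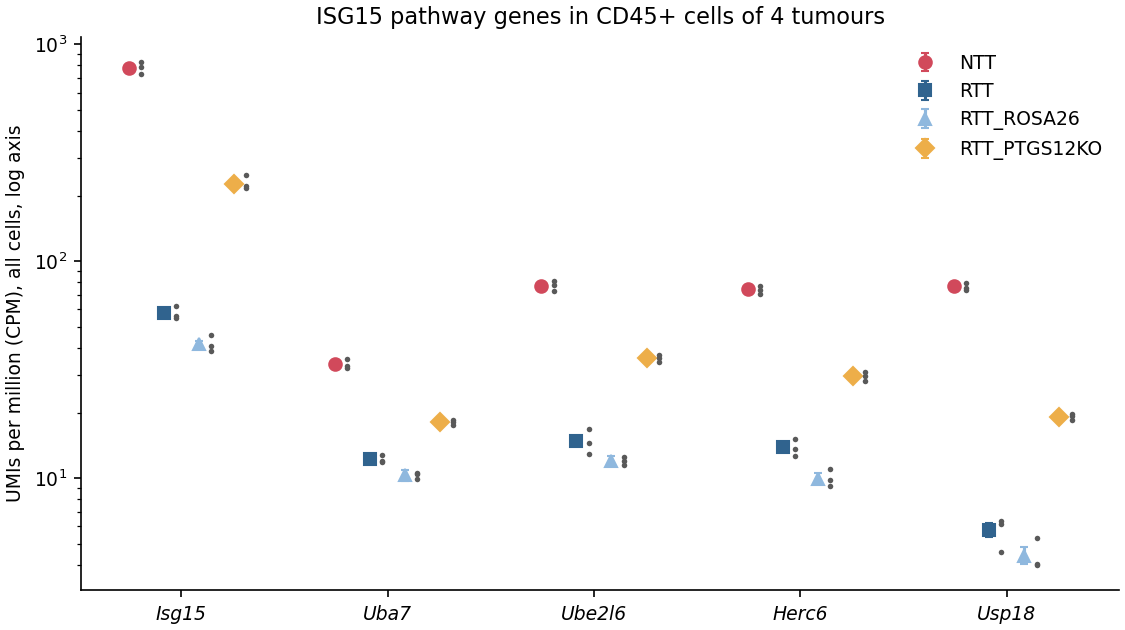
CPM over all cells on a log axis for each of the 5 genes in each sample. Large symbols are samples with 95% counting intervals and small grey points are the 3 loads of that sample; NTT is highest for each gene, from 33.4 CPM for *Uba7* to 781 CPM for *Isg15*, and RTT_ROSA26 is lowest.

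Within NTT *Isg15* was highest in Infl_Mono and neutrophils, and over the tumours its level in macrophages depended on the cluster. Over the 42 groups of 1 cell type in 1 sample with at least 50 cells, it ran from 10.3 CPM in Myofibrobl of RTT to 1883 CPM in Infl_Mono of NTT. In NTT the order after Infl_Mono was neutrophils at 1107 CPM (95% interval 1047 to 1169), cDC2s at 849 (812 to 887), DC3 at 799 (731 to 871), TAM_H2Ab1 macrophages at 641 (607 to 677) and Monocyte_1 at 622 (614 to 630). cDC2s and DC3 overlapped in their intervals, as did TAM_H2Ab1 and Monocyte_1. TAM_cycling stood at 473 CPM (438 to 510) and the 32 cDC1 cells at 202 (163 to 247). NK cells came lower, at 131.5 CPM, and T_CD8 cells, which in these hosts come from the transfer, at 77.5. TAM_C1q and TAM_Spp1, the most numerous macrophage clusters of RTT, held 26.8 and 28.9 CPM in RTT and 25.1 and 25.5 in RTT_ROSA26. Their intervals overlapped within each tumour.

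The enzymes did not keep the order of *Isg15*. *Ube2l6* was highest in DC3, the mature CCR7+ dendritic cells, at 148 CPM (120 to 182) in NTT and 118 (94.5 to 145) in RTT_PTGS12KO, above the 127 and 85.8 CPM of Infl_Mono by value, with overlapping intervals in NTT. In RTT_PTGS12KO the interval of Infl_Mono, 77.9 to 94.3, ended just below that of DC3. In the 12 and 14 DC3 cells of RTT and RTT_ROSA26 it stood at 119.5 and 194 CPM, from 14 and 23 UMIs. *Uba7* varied least among the myeloid types of NTT with at least 50 cells, from 25.8 CPM in neutrophils to 47.5 in Infl_Mono. *Herc6* was highest in Infl_Mono, at 155 CPM in NTT and 127 in RTT. NK cells of NTT had 36.6 CPM of *Herc6* but 9.65 of *Ube2l6* (7.51 to 12.2), and T_CD8 cells had 21.1 and 5.77. The lymphocytes therefore had several-fold less of the E2 transcript than any myeloid type of NTT with at least 50 cells.

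**Figure D2:**
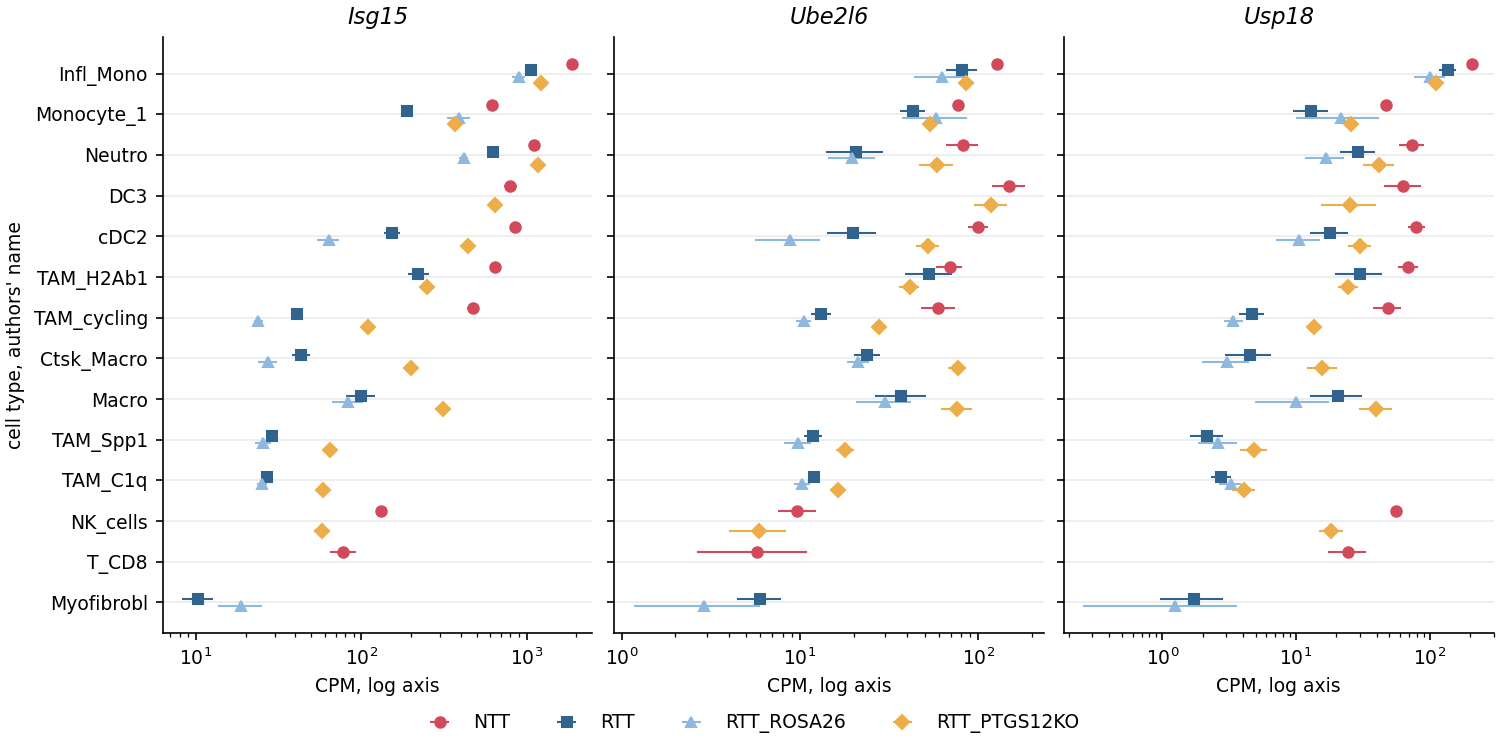
CPM on a log axis of *Isg15*, *Ube2l6* and *Usp18* by cell type for each sample with at least 50 cells of that type; bars are 95% counting intervals. *Isg15* peaks in Infl_Mono, *Ube2l6* in DC3 of NTT at 148 CPM, and NK cells combine low *Ube2l6* with 56.4 CPM of *Usp18* in NTT.

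In NTT the balance between the modifier and *Usp18* differed between lymphocytes and myeloid cells. There, NK cells held 42.9 *Usp18* UMIs for every 100 of *Isg15* (exact binomial 95% interval 38.1 to 48.2) and T_CD8 cells held 31.4 (21.2 to 45.6). In RTT_PTGS12KO, NK cells held 31.8 (25.0 to 40.1). Among myeloid types of NTT the value lay between 6.68 in neutrophils (5.30 to 8.31) and 11.0 in Infl_Mono (10.5 to 11.4) over the types with at least 50 cells, and none of these intervals reached those of the NTT lymphocytes. In the other tumours some did: Macro held 20.6 in RTT (12.2 to 33.2) and 12.0 in RTT_ROSA26 (5.77 to 22.4), and cDC2s of RTT_ROSA26 held 16.7 (10.8 to 24.8), all overlapping T_CD8 cells of NTT, and the first also NK cells of RTT_PTGS12KO. Neutrophils stood at the other end, with 4.65, 3.99 and 3.55 *Usp18* UMIs per 100 of *Isg15* in RTT, RTT_ROSA26 and RTT_PTGS12KO. DC3 of RTT_PTGS12KO lay there too, at 3.96 (2.36 to 6.25). The balance of the E2 and E3 transcripts did not divide the types in the same way. NK cells of NTT held 26.3 *Ube2l6* UMIs per 100 of *Herc6* (19.9 to 34.5) against 81.8 in Infl_Mono and 129.9 in Monocyte_1 (123.1 to 137.2). Neutrophils reached down to the lymphocytes, with 33.3 in RTT (21.4 to 50.5) and 55.6 in RTT_PTGS12KO (42.1 to 73.1), where NK cells held 31.0 (20.0 to 46.8). Both genes of a pair are counted by 3′ tags, so the ratios compare cell types and not protein amounts.

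The cells that carried these transcripts changed with the tumour. Monocytes, 80.1% of NTT cells, held 86.7% of its *Isg15* UMIs, and Infl_Mono alone, 19.6% of cells, held 41.1% of *Isg15* and 46.0% of *Usp18*. In RTT, monocytes were 6.55% of cells and held 30.1% of *Isg15* and 32.8% of *Usp18*. The E1 enzyme followed cell numbers more closely there, with 82.5% of *Uba7* UMIs in macrophages, which were 84.5% of cells. In RTT_ROSA26, neutrophils were 2.14% of cells and held 20.8% of all *Isg15*. In RTT_PTGS12KO, monocytes were 39.0% of cells with 59.0% of *Isg15*, and macrophages were 50.6% of cells with 27.1%.

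NTT against RTT compares tumours naive and resistant to targeted therapy. Over all cells, 5 of 5 genes were at least 2-fold higher in NTT, where 7.23% of the 6999 genes with a mean of at least 10 CPM were. The log2 ratio of CPM + 1 was 3.73 for *Isg15* (3.69 to 3.76), 3.52 for *Usp18* (3.42 to 3.62), 2.33 for *Herc6* (2.26 to 2.41), 2.30 for *Ube2l6* (2.23 to 2.38) and 1.38 for *Uba7* (1.29 to 1.47). The median of the 5 was 2.33, against -0.09 over all genes. These sums mix more transcript per cell with more cells of a rich type. With the types of at least 20 cells in both tumours weighted by 1 mix, the median was 0.96. In that mix 2 of the 5 remained at least 2-fold higher. The types it leaves out include TAM_C1q, 42.8% of RTT cells, and NK cells, 8.58% of NTT cells. It therefore covers fewer types than the sums.

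Within cell types the gap depended on the type. Among macrophages 5 of 5 genes were at least 2-fold higher in NTT, against 5.1% of genes, and *Isg15* stood at 513 CPM (491 to 536) in NTT and 32.7 (31.6 to 33.8) in RTT, a log2 ratio of 3.93. *Usp18* stood at 54.1 and 3.31 CPM there, a log2 ratio of 3.68. The clusters behind the class differ, since 192 of the 308 NTT macrophages were TAM_H2Ab1 and 3412 of the 6734 RTT macrophages were TAM_C1q. With 1 mix of the clusters with at least 20 cells in both tumours, the median of the 5 was 1.16 in place of 2.42. In that mix 3 of the 5 genes stayed past 2-fold. It leaves out TAM_C1q, with 12 cells in NTT, and Ctsk_Macro, with 5. In TAM_cycling alone, dividing macrophages, all 5 were past 2-fold, against 4.62% of genes, and *Isg15* stood at 473 and 41.0 CPM. In TAM_H2Ab1 alone *Isg15* stood at 641 and 222 CPM, a log2 ratio of 1.53, and *Ube2l6* at 69.0 and 53.2, with an interval of the log2 ratio from -0.11 to 0.87 that includes 0. In cDC2s 5 of 5 were at least 2-fold higher, against 4.81% of genes, with *Isg15* at 849 CPM in NTT and 153 in RTT. In neutrophils 2 of 5 were, *Ube2l6* and *Usp18*, against 4.91% of genes. *Ube2l6* in neutrophils was 81.6 CPM in NTT and 20.6 in RTT, and *Uba7* was 25.8 and 22.6, which counting error does not separate.

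The monocytes of the naive and resistant tumours were closer to each other. *Isg15* was at 910.5 CPM in NTT and 416 in RTT (log2 ratio 1.13, 1.06 to 1.19), and it was the 1 of 5 genes past 2-fold, against 1.69% of genes. *Usp18* stood at 83.4 and 45.1 CPM, *Ube2l6* at 88.5 and 52.8, *Herc6* at 81.4 and 65.0, and *Uba7* at 36.9 and 29.8. In Monocyte_1 alone *Usp18* was at 46.7 CPM in NTT and 12.9 in RTT, a log2 ratio of 1.78 (1.38 to 2.19). The RTT monocytes number 522 cells and those of NTT 6619.

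**Figure D3:**
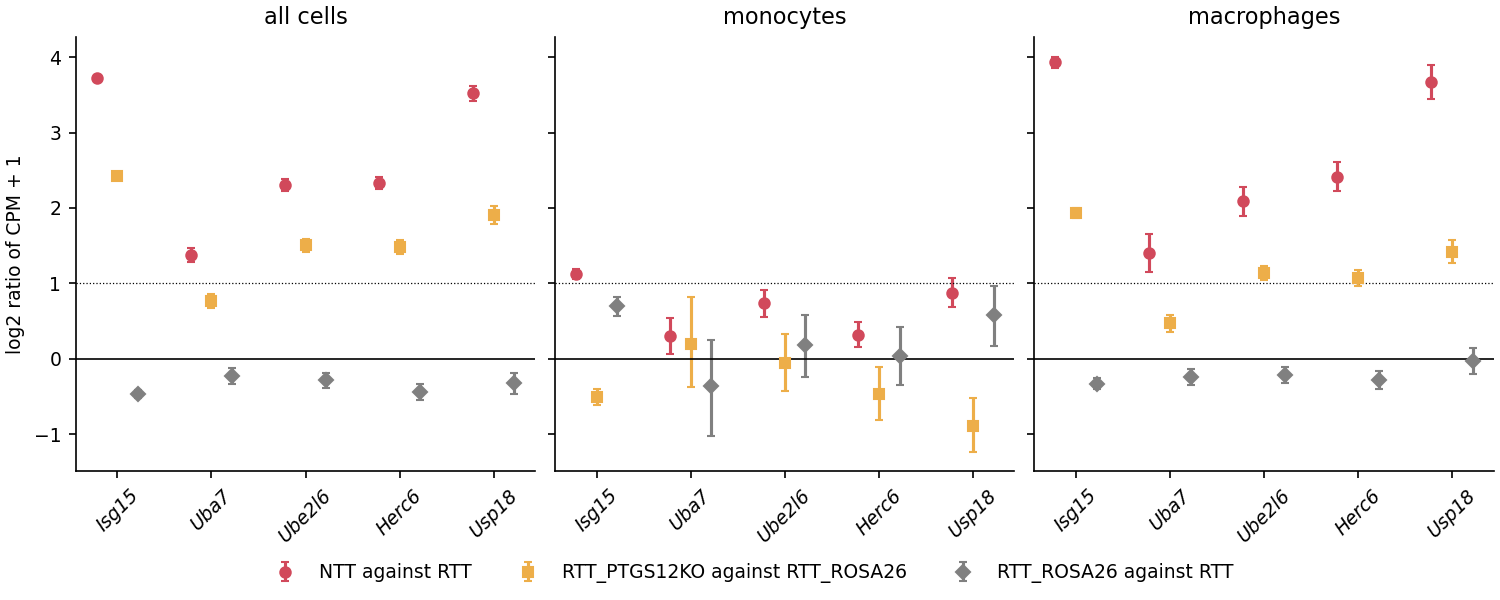
Log2 ratio of CPM + 1 for each gene in 3 comparisons, over all cells, monocytes and macrophages, with 95% counting intervals; the dotted line marks a 2-fold difference. In macrophages *Isg15* is at 3.93 in the naive comparison (red) and 1.93 in the knockout comparison (yellow), which in monocytes puts it at -0.51.

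RTT_PTGS12KO against RTT_ROSA26 compares resistant tumours without and with the cyclooxygenases of the cancer cells. Over all cells 4 of 5 genes were at least 2-fold higher without them, where 3.56% of genes were, and the fifth, *Uba7*, had a log2 ratio of 0.76 (0.67 to 0.85). The log2 ratio was 2.43 for *Isg15*, 1.91 for *Usp18*, 1.50 for *Ube2l6* and 1.48 for *Herc6*. The median of the 5 was 1.50 against -0.12 over all genes. With 1 mix of the cell types with at least 20 cells in both tumours, the median was 0.77 and 0 of the 5 were past 2-fold. The types left out include TAM_H2Ab1 and DC3, with 11 and 14 cells in RTT_ROSA26. The control pair, RTT_ROSA26 against RTT, shares a sample with each of the other comparisons and shows how far resistant tumours with intact cyclooxygenases differed. All 5 genes were lower in RTT_ROSA26 over all cells, with log2 ratios from -0.47 for *Isg15* to -0.23 for *Uba7*, and none was past 2-fold, where 1.04% of genes were at least 2-fold lower.

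In macrophages, the largest class of both edited tumours, the loss of cyclooxygenases went with higher levels of each of the 5 genes. *Isg15* stood at 101 CPM (99.1 to 103) against 25.7 (24.8 to 26.8), *Ube2l6* at 26.0 against 11.3, *Herc6* at 19.5 against 8.75 and *Usp18* at 10.4 against 3.24. *Uba7* stood at 14.3 against 10.1 CPM, with a log2 ratio of 0.47 (0.36 to 0.58). Thus 4 of 5 were past 2-fold, where 2.26% of genes with a mean of at least 10 CPM were; *Usp18*, with its lower mean, is not among the genes of that background. With CPM + 10 in place of CPM + 1 it was 1 of 5. The clusters held different shares of the class, TAM_H2Ab1 being 364 of the 5207 macrophages in RTT_PTGS12KO and 11 of 5993 in RTT_ROSA26. Under 1 mix of the other 4 clusters it was again 4 of 5, with a median log2 ratio of 1.16. The size of the difference varied over the clusters, and in TAM_C1q and TAM_Spp1 only *Isg15* was past 2-fold, where 1.32% and 1.51% of genes with a mean of at least 10 CPM were. The other members had log2 ratios between 0.11 (*Uba7*) and 0.62 (*Ube2l6*) in TAM_C1q and between 0.68 (*Usp18*) and 0.92 (*Herc6*) in TAM_Spp1. *Isg15* had a log2 ratio of 2.83 (2.62 to 3.04) in Ctsk_Macro, osteoclast-like cells with *Ctsk* and *Mmp9*, 2.15 (2.06 to 2.25) in TAM_cycling, 1.31 (1.14 to 1.48) in TAM_Spp1 and 1.19 (1.07 to 1.31) in TAM_C1q. TAM_Spp1 and TAM_C1q overlapped in their intervals and both lay below the other pair. *Usp18* did not differ beyond counting error in TAM_C1q, at 4.07 CPM against 3.24, while in TAM_cycling it stood at 13.6 against 3.40. RTT_PTGS12KO did not reach NTT in TAM_cycling for any of the 5 genes: *Uba7* stood at 14.7 against 31.6 CPM, *Ube2l6* at 27.7 against 59.6 and *Isg15*, the farthest, at 109 against 473.

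In macrophages the order of the samples seen for *Isg15* also held for 5 of 6 other interferon-stimulated genes, *Cxcl9*, *Ciita*, *Irf7*, *Ifit1* and *Rsad2*, and *Gbp2* was highest in RTT_PTGS12KO. These are sums over the class, whose mix of clusters differs. Within TAM_H2Ab1, which holds 192 of the 308 NTT macrophages, 3 of the 6 genes were above 0 and 3 below in NTT against RTT, with a median log2 ratio of 0.08 and a range from -1.93 to 1.81. In monocytes 4 of the 6 were lower in NTT than in RTT, *Ifit1* at -0.67, *Gbp2* at -0.47, *Cxcl9* at -0.33 and *Rsad2* at -0.18. *Irf7* at 1.37 and *Ciita* at 0.61 were higher. In the knockout comparison 3 of the 6 were above 0 and 3 below, with *Ifit1* and *Rsad2* at -1.97 and -1.90. These monocyte sums also mix clusters. Within Monocyte_1, 4 of the 6 were above 0 in NTT against RTT, with a median of 0.73, and within Infl_Mono 3 were. In the knockout comparison the lowest of the 6 was -0.80 within Infl_Mono and -0.83 within Monocyte_1. In the macrophage sums *Gbp2*, a guanylate-binding protein, was at 349 CPM in NTT and 428 in RTT_PTGS12KO, against 86.2 in RTT and 26.0 in RTT_ROSA26. *Cxcl9*, a T cell attracting chemokine, had 484, 344, 43.3 and 23.5 CPM with the samples in that order, and *Ciita*, the master regulator of MHC class II, had 63.2, 31.6, 5.18 and 3.71. *Irf7*, the transcription factor that amplifies type I interferon, had 371 CPM in NTT but 37.5 in RTT_PTGS12KO, against 19.0 in RTT and 14.96 in RTT_ROSA26. For RTT_PTGS12KO against RTT_ROSA26 the log2 ratios of *Gbp2*, *Cxcl9* and *Ciita* ran from 2.79 to 3.99, above the 1.93 of *Isg15*, the highest of the 5. For NTT against RTT, *Isg15* at 3.93 and *Irf7* at 4.22 lay above *Gbp2* at 2.01, *Ciita* at 3.38 and *Cxcl9* at 3.45, while *Herc6* at 2.42, *Ube2l6* at 2.09 and *Uba7* at 1.41 lay below *Ciita* and *Cxcl9*. *Ifit1* and *Rsad2*, antiviral interferon-stimulated genes, had 2.62 and 3.31 in the naive comparison and 1.68 and 1.75 in the knockout comparison, inside the range of the members in both. The control pair was itself apart for some of these genes, with log2 ratios of -1.69 for *Gbp2* and -0.86 for *Cxcl9* in RTT_ROSA26 against RTT, while the 5 members lay between -0.33 and -0.02.

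**Figure D4:**
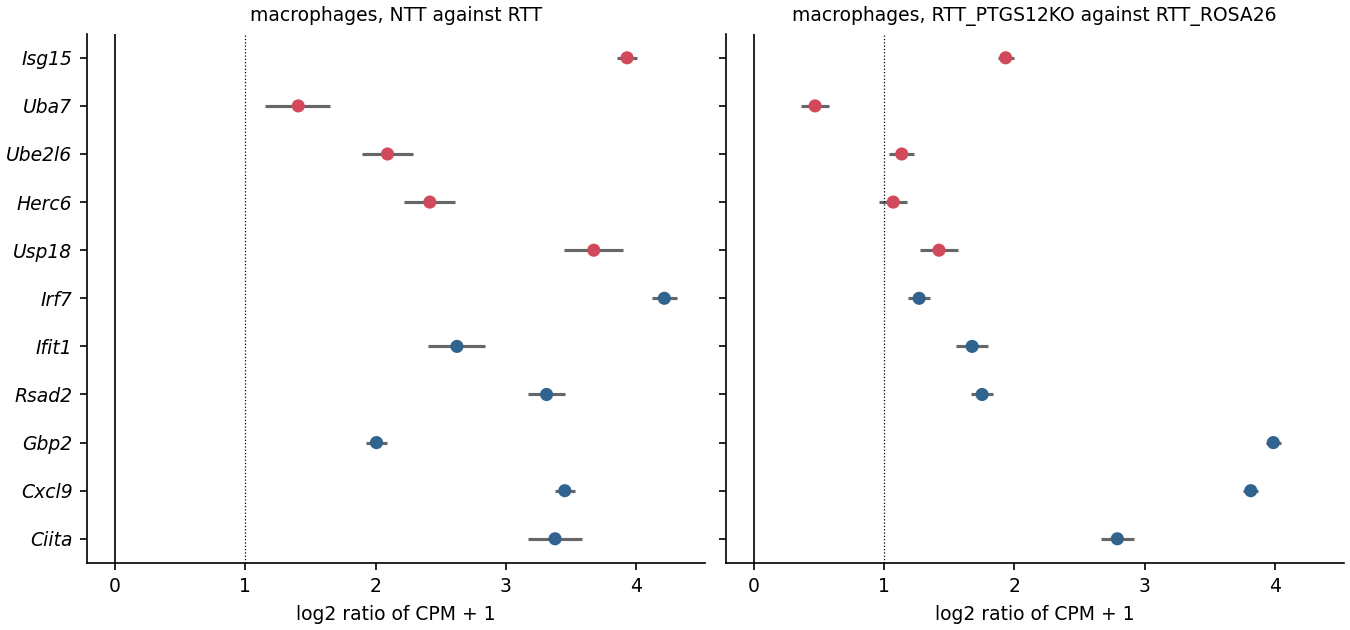
Log2 ratio of CPM + 1 in macrophages with 95% counting intervals for the 5 genes of the ISG15 system (red) and 6 other interferon-stimulated genes (blue). In the left panel *Isg15* at 3.93 and *Irf7* at 4.22 are farthest right, and in the right panel *Gbp2* at 3.99 and *Cxcl9* at 3.82 are.

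In monocytes as a class none of the 5 genes was clearly higher in the knockout comparison. *Isg15* stood at 474 CPM (468 to 481) in RTT_PTGS12KO against 676 (626 to 728) in RTT_ROSA26, *Herc6* at 48.0 against 66.9 and *Usp18* at 36.2 against 67.9, and for these 3 genes the interval of the log2 ratio lay below 0. *Ube2l6* stood at 57.4 against 59.9 CPM and *Uba7* at 26.3 against 23.0, with intervals that include 0. By count, 0 of the 5 were at least 2-fold higher, against 1.58% of genes. RTT_ROSA26 has 144 monocytes, of which 86 are Infl_Mono, while 635 of the 4015 monocytes of RTT_PTGS12KO are. Inside Infl_Mono, *Isg15* was 1226 CPM in RTT_PTGS12KO and 897 in RTT_ROSA26, the opposite order, and *Usp18* was 112 and 101. With 1 mix of these clusters the log2 ratios of *Isg15*, *Herc6* and *Usp18* were 0.24, 0.058 and 0.18, above 0. Inside Monocyte_1 *Isg15* was 371.5 and 390.5 CPM, with overlapping intervals, and *Uba7* was 25.9 and 9.70 (log2 ratio 1.33, 0.06 to 2.89), from the 54 such cells of RTT_ROSA26.

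Neutrophils and cDC2s are the types with over 100 cells in every sample, and both separated the tumours. *Isg15* in neutrophils stood at 1107 CPM in NTT (1047 to 1169) and 1173 in RTT_PTGS12KO (1118 to 1231), which overlap, above 628 in RTT and 417 in RTT_ROSA26. *Herc6* had 109, 105, 61.8 and 29.3 CPM with the samples in that order. Against RTT_ROSA26, 5 of 5 genes were past 2-fold in neutrophils of RTT_PTGS12KO, where 4.26% of genes were. In cDC2s, conventional dendritic cells that present to CD4+ T cells, *Isg15* stood at 849 CPM in NTT, 439.6 in RTT_PTGS12KO (418 to 462), 153 in RTT and 63.5 in RTT_ROSA26, and *Ube2l6* at 100.2, 52.0, 19.7 and 8.75. Again 5 of 5 were past 2-fold for RTT_PTGS12KO against RTT_ROSA26, where 4.52% of genes were. The control pair also differed in both types. In neutrophils 1 of 5 genes, *Herc6* at a log2 ratio of -1.05, was at least 2-fold lower in RTT_ROSA26 than in RTT, where 2.15% of genes were. In cDC2s 3 of 5 genes, *Isg15*, *Ube2l6* and *Herc6*, were, where 3.64% of genes were.

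Enzymes that share partners or folds with this system were read from the same sums. Of 7 relatives in the ubiquitin pathway (*Uba1*, *Uba6*, *Ube2l3*, *Herc1*, *Herc2*, *Herc3* and *Herc4*), 6 had a mean of at least 10 CPM over all cells and 0 were 2-fold higher or lower in either comparison. Of all genes with that mean 7.23% were higher and 6.09% lower in NTT against RTT, and 3.56% and 1.93% in the knockout comparison, so that 0 of 6 is near the background. The 6 had log2 ratios between -0.23 and 0.32 in the first and between -0.15 and 0.15 in the second. *Ube2l3*, the ubiquitin E2 closest in kind to UBE2L6, ranged from 226 CPM in RTT to 255 in NTT, with the edited samples at 248 and 253. *Uba1*, the main ubiquitin E1, had a log2 ratio of 0.32 in NTT against RTT and 0.11 in the knockout comparison. Of 7 genes with a side role in ISG15 biology (*Trim25*, *Arih1*, *Usp5*, *Usp13*, *Usp14*, *Usp21* and *Itgal*), 5 had that mean and 1 was at least 2-fold higher in each comparison, where 7.23% and 3.56% of genes were. It was *Itgal*, which codes for a chain of the ISG15 receptor LFA-1, with log2 ratios of 1.16 and 1.27 over all cells but 0.35 and -0.23 in monocytes, the last with an interval that includes 0 (-0.47 to 0.02). In macrophages *Itgal* was at 1.23 (1.10 to 1.34) in NTT against RTT. *Trim25*, a ligase that is itself modified by ISG15, had 0.86 and 0.33. *Usp14* went the other way, at -0.68 and -0.39.

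Of 7 genes of the interferon receptor pathway, 2 were at least 2-fold higher in each comparison over all cells, *Stat2* and *Irf7*, where 7.23% and 3.56% of genes were. In monocytes their log2 ratios were 0.68 and 1.37 in NTT against RTT. In the knockout comparison they were -0.17 (-0.52 to 0.22) and -0.18 (-0.37 to 0.01) there, and the median of the 7 genes was -0.15. Within Infl_Mono that median was 0.21, with 6 of the 7 above 0, and within Monocyte_1 it was 0.001. *Stat2*, through which USP18 reaches the receptor, stood at 80.5 CPM over all cells in NTT and 37.0 in RTT_PTGS12KO, against 16.9 in RTT and 11.3 in RTT_ROSA26. The receptor chains *Ifnar1* and *Ifnar2* had log2 ratios of 0.01 and 0.19 in NTT against RTT and -0.16 each in the knockout comparison. Also over all cells, *Jak1* had 0.33 and 0.06, *Tyk2* 0.86 and 0.58, and *Irf9* 0.85 and 0.56. Over all cells the median of the 7 was 0.85 in NTT against RTT and 0.56 in the knockout comparison, both below the medians of the ISG15 genes.

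Counted per cell, with each cell thinned to 3000 UMIs so that depth is equal, 69.5% of NTT cells (exact binomial 95% interval 68.5 to 70.5) and 37.3% of RTT_PTGS12KO cells had an *Isg15* UMI, against 11.1% in RTT and 8.09% in RTT_ROSA26. Without thinning the shares were 83.9%, 63.6%, 26.9% and 21.3%. Between 46 and 208 cells per sample were too shallow to thin. No immune type here should lack *Isg15* altogether; the lowest type, Myofibrobl, had it in 2.42% of RTT cells (0.893 to 5.19) at a median of 33469 UMIs before thinning, below the 6.69% of RTT macrophages (6.11 to 7.32) at 12915. *Usp18* was seen in 17.6%, 5.81%, 1.46% and 1.39% of thinned cells with the samples in that order. No UMI of any of the 5 genes was found in 20.2% of NTT cells and 51.4% of RTT_PTGS12KO cells, against 79.4% in RTT and 83.5% in RTT_ROSA26. All 5 together were seen in 26 of 8058 thinned cells of NTT, 1 of 10205 of RTT_PTGS12KO and 0 of the 7924 and 6777 cells of the others, which allows up to 0.0465% and 0.0544% of cells with a UMI of each gene at this depth (upper ends of the exact interval). These limits are on capture, not on how many cells express all 5, and the whole chain cannot be followed cell by cell.

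In Monocyte_1 of NTT and RTT_PTGS12KO, cells with more *Isg15* had more *Usp18*, *Ube2l6* and *Herc6*. In RTT, with 237 cells at 0 and 134 at 1 to 4 *Isg15* UMIs, the intervals overlapped for all 4 genes, *Usp18* being 7.03 CPM (2.28 to 16.4) and 9.95 (2.71 to 25.5). In Monocyte_1 of NTT, cells were split by thinned *Isg15* UMIs into 1444 with 0, 2821 with 1 to 4 and 602 with 5 or more. *Usp18* was 28.6 CPM (23.8 to 34.1), 48.4 (43.9 to 53.4) and 78.1 (65.7 to 92.1) in these bins. *Ube2l6* was 56.8, 84.8 and 119.6 CPM and *Herc6* 44.3, 63.9 and 83.1. The intervals of the first and last bin do not overlap for these 3 genes. *Uba7* was 26.1 (21.5 to 31.4), 35.8 (31.9 to 40.1) and 38.8 CPM (30.2 to 49.0), a shallower gain whose first and last bins overlap. In Monocyte_1 of RTT_PTGS12KO *Usp18* went from 19.3 to 62.6 CPM and *Uba7* from 25.2 to 36.4. In TAM_C1q, where *Isg15* is rare, RTT and RTT_PTGS12KO held more *Usp18* in the cells with *Isg15*, and in RTT_ROSA26, with 3 *Usp18* UMIs in those cells, the intervals overlapped. In RTT 196 cells with 1 to 4 *Isg15* UMIs had 15.3 CPM of *Usp18* (7.00 to 29.1) and the 3196 cells with 0 had 1.88 (1.11 to 2.97). In RTT_PTGS12KO the values were 14.9 (6.43 to 29.4) in 179 cells and 2.44 (1.17 to 4.48) in 1367. For *Uba7*, *Ube2l6* and *Herc6* the intervals of the bins overlapped in both tumours, *Herc6* in RTT being 18.7 CPM (9.34 to 33.5) and 9.80 (7.92 to 12.0). *Usp18* in RTT_ROSA26 was 7.81 CPM (1.61 to 22.8) in the cells with 1 to 4 *Isg15* UMIs and 3.65 (2.31 to 5.47) in those with 0. In RTT_ROSA26 *Uba7* was 13.0 against 14.7 CPM and *Herc6* 5.21 against 5.87, the cells with *Isg15* being the lower by value. In Monocyte_1 of RTT_ROSA26, with 24 cells at 0 and 22 at 1 to 4 *Isg15* UMIs, *Herc6* was 55.6 and 30.3 CPM, with overlapping intervals.

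**Figure D5:**
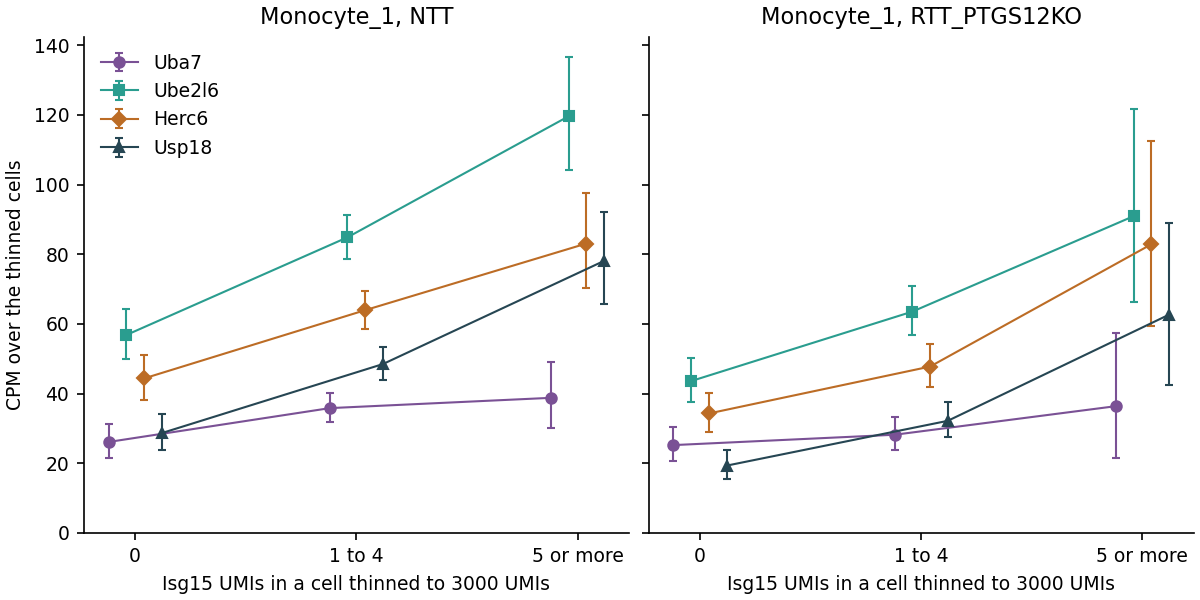
CPM of *Uba7*, *Ube2l6*, *Herc6* and *Usp18* in Monocyte_1 cells split by their *Isg15* UMIs after thinning to 3000 UMIs, in NTT and RTT_PTGS12KO, with 95% counting intervals. *Usp18* is 28.6, 48.4 and 78.1 CPM over the bins of NTT, and *Uba7* is the flattest.

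The patterns of the 5 genes over the 42 groups of cell type and sample were alike without being the same. Pearson's r of log2(CPM + 1) between members ran from 0.757 for *Ube2l6* and *Usp18* to 0.969 for *Isg15* and *Herc6*. Groups of 1 sample share a library and its depth, so these are descriptions. The SD of log2(CPM + 1) over the groups was 2.03 for *Isg15*, 1.73 for *Usp18*, 1.37 for *Ube2l6*, 1.35 for *Herc6* and 1.04 for *Uba7*. From lowest to highest group *Isg15* spanned 184-fold, and the 57.3-fold span of *Uba7* rests on 2 UMIs in its lowest group. Among the 7096 genes with a mean of at least 10 CPM, *Herc6* was the most like *Isg15*, followed by *Oas3* (0.944) and *Xaf1* (0.941). The most like *Usp18* was *Ifi206* (0.948), the most like *Uba7* was *Dtx3l* (0.947), and the most like *Ube2l6* was *Znfx1* (0.918). With groups of at least 20 cells, only the mutual match of *Isg15* and *Herc6* remained, 2 of the 15 matches listed.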

How the data were processed

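The authors deposited UMI counts for each gene in each cell, made with Cell Ranger and the mm10 reference, filtered and annotated in Seurat 4.3.0, with the sample and cell type of each cell. These counts were used as deposited. Members and gene lists were chosen with earlier results of these data known. Named genes were the 5 members, 3 lists of pathway relatives, 6 interferon-stimulated genes for context and the 3 genes most like each member. Counts were summed per sample and cell type and divided by total UMIs to give CPM, with a pseudocount of 1 CPM in log2 ratios. Intervals of levels are exact Poisson, of shares Clopper-Pearson, and of log2 ratios joined from the Poisson bounds by the square-and-add rule. Genes with a mean of at least 10 CPM over the samples compared formed the background of each 2-fold count. With 1 sample per group no test was possible. No doublet caller was run; leaving out the 5% of cells with the most UMIs stood in for it. Monocytes were Monocyte_1, Infl_Mono and Monocyte_3, and macrophages TAM_C1q, TAM_Spp1, TAM_cycling, TAM_H2Ab1 and Ctsk_Macro. The TMM alternative used edgeR 4.0.16 under R 4.3.3, and all other steps numpy 2.4.6, scipy 1.17.1, pandas 2.3.3 and matplotlib 3.10.9 in Python 3.11.15. The log2 ratio and its interval were tested on simulated Poisson counts, which carry no spread between cells or samples. The other steps were not tested in this way. Positions came from the GENCODE annotation of GRCm38 and promoter windows from RefSeq (GRCm38.p6). Alternatives were a pseudocount of 10 CPM, TMM scaling, thinning to 3000 UMIs, stricter cell filters, 1 mix of cell types for both samples, and leaving out each load or Infl_Mono. The mix used only types with at least 20 cells in both samples. Some genes are not reported here.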

Additional observations from a re-analysis of the deposited data

Results flagged for a closer look

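The difference between RTT_PTGS12KO and RTT_ROSA26 pointed opposite ways in monocytes and macrophages for 3 genes, with both counting intervals on their own side of 0. For *Isg15* the log2 ratio was -0.51 in monocytes and 1.93 in macrophages, for *Herc6* -0.47 and 1.07, and for *Usp18* -0.89 and 1.42. *Isg15* also pointed opposite ways in RTT_ROSA26 against RTT, at 0.70 in monocytes and -0.33 in macrophages. RTT has 522 monocytes, of which 138 are Infl_Mono, and within Infl_Mono *Isg15* was at -0.24 (-0.39 to -0.10) in this comparison, against 1.04 (0.78 to 1.28) in Monocyte_1. Its value in monocytes with 1 mix of clusters was 0.12. Each group is 1 sample, so the difference between the classes was not tested. RTT_ROSA26, which both comparisons share, has 144 monocytes, of which 86 are Infl_Mono. With 1 mix of clusters the log2 ratios of *Isg15*, *Herc6* and *Usp18* in monocytes for the knockout comparison were 0.24, 0.058 and 0.18.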

How the results depend on the processing

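No paired analysis was possible because no condition has more than 1 sample. Over all cells the direction of all 5 genes held in each of 10 settings in all 3 comparisons, as it did in macrophages for NTT against RTT and RTT_PTGS12KO against RTT_ROSA26. With 1 mix of the types with at least 20 cells in both samples, the median log2 ratio of NTT against RTT was 0.96 over all cells. There 2 genes were past 2-fold. In macrophages, where the mix leaves out TAM_C1q, it was 1.16, with 3 past 2-fold. For RTT_PTGS12KO against RTT_ROSA26 it was 0.77 over all cells, with 0 past 2-fold. In monocytes this mix turned the knockout comparison to 0.18, with *Isg15* at 0.24, *Herc6* at 0.058 and *Usp18* at 0.18, and turned *Usp18* to -0.23 in RTT_ROSA26 against RTT. Without Infl_Mono the medians were 2.17 over all cells for NTT against RTT and -0.0212 in monocytes for the knockout comparison, with *Usp18* turned to 0.14 and 1 gene past 2-fold, and 2 genes were past 2-fold in monocytes for NTT against RTT, as they were without load 2 or with thinned cells. CPM + 10 gave medians of 1.82 over all cells and 1.79 in macrophages for NTT against RTT, 1.02 and 0.65 for the knockout comparison, with 1 gene past 2-fold in macrophages, and -0.18 over all cells for RTT_ROSA26 against RTT. TMM factors gave 2.48 and 1.63 over all cells. Thinned cells gave 1.73 over all cells and -0.0927 in monocytes for the knockout comparison. For NTT against RTT in macrophages the median was 2.61 without the deepest 5% of cells and 2.62 without load 3, and for RTT_ROSA26 against RTT over all cells it was -0.54 without load 1. Apart from the effect of leaving out cells or types, the cause was not tested. Of the alternatives for single genes, 331 stayed within the counting interval of the value reported, 114 left it without turning a called direction, and 5 turned. Monocytes of RTT_ROSA26 and macrophages of NTT rest on 144 and 308 cells, which limits what either can show.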
